A study of Homo sapiens with 6 samples.

Results

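The Integrator and Mediator complexes were examined by RNA sequencing of ARPE-19, an established human line derived from retinal pigment epithelium, after exposure to cinobufagin. Their genes were selected by symbol, as every numbered Integrator subunit gene (INTS) and every numbered Mediator subunit gene (MED, with the L paralogs), plus the kinase module genes CCNC, CDK8 and CDK19. This gave 48 of the 17945 genes in the table, 15 for Integrator and 33 for Mediator, and every symbol of that form in the RefSeq gene table was present. The measured value in the selection was a floor of 1 FPKM in at least 3 of the 6 libraries, which chose the 47 genes tested out of 11599 genes tested in all. MED26 was the lowest member above that floor, at 2.69 to 4.09 FPKM, and MED12L lay just outside it, at 0.68 to 1 FPKM.

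The treated group held 3 libraries of wild-type ARPE-19 cells kept for 24 h in 320 nM cinobufagin, a toad venom steroid that inhibits the sodium pump. The control group held 3 libraries of the same line given DMSO for 24 h, and both groups were grown in DMEM with 10% fetal bovine serum. Nothing in the labels states that replicate libraries are separate cultures, so p-values measure the spread between these libraries, which may be technical. Values are FPKM, fragments per unit of transcript length and of mapped fragments, so levels can be compared between genes.

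Library sums were 534694 to 560721 FPKM and 14701 to 14896 genes were above 0, with no library apart from its group (Pearson's r between libraries 0.996 to 0.9975 within groups and 0.9619 to 0.9635 between groups, a description over genes, not replicates). The keratin genes KRT8 and KRT18 fell from means of 454 and 324 to 316 and 232 FPKM. Pigment epithelium markers went both ways. MITF and OTX2 rose from 45.1 and 48.5 to 56.3 and 74.5 FPKM. SERPINF1 and PMEL fell from 5.15 and 2.04 to 3.62 and 1.38 FPKM. TYR, below the floor for testing, had means of 1.03 and 0.403 FPKM. The visual cycle gene RPE65 had a mean of 0.01 FPKM in both groups and TTR was listed at 0. The 11 epithelial and pigment epithelium markers, whose sum is mostly keratin, summed to 856 to 925 FPKM in DMSO and 683 to 688 FPKM in cinobufagin libraries, and the part of this in the results on the complexes was not tested. The summed level of 7 markers of immune, endothelial, melanocyte and photoreceptor cells was 0.6 to 0.75 FPKM in DMSO and 0.73 to 1.05 FPKM in cinobufagin libraries, with PTPRC at 0. In bulk RNA, fewer cells of a type and less RNA per cell cannot be told apart.

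Integrator is a nuclear complex that binds RNA polymerase II paused near the start of a gene. Its cleavage module, built on the endonuclease INTS11, cuts the nascent RNA, which forms the ends of small nuclear RNAs and stops transcription early at many protein-coding genes. Its phosphatase module brings in protein phosphatase PP2A, which removes phosphates that elongating polymerase carries. Mediator acts when the polymerase is loaded and released at promoters. Its head, middle and tail modules carry signals from enhancer-bound factors to the polymerase, and a separable kinase module with CDK8 or CDK19, cyclin C, MED12 and MED13 regulates that contact.

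The sequences directly upstream of the gene with the largest rise in each complex, of INTS11, the only Integrator gene that fell, and of MED20 are shown because the start regions of INTS11, MED29 and MED20 are shared with a neighbour gene described further on. They come from the RefSeq promoter table (GRCh38.p14) and run 5′ to 3′ on the strand of the subunit gene, from its outermost start in GENCODE 29 up to the next annotated exon or the limit of 250 bases before the RefSeq start. The INTS15 stretch lies at chr7:6589771-6590016 on the plus strand, INTS11 at chr1:1324692-1324755 on the minus strand, MED29 at chr19:39391196-39391302 on the plus strand and MED20 at chr6:41921140-41921187 on the minus strand. Capitals mark the motifs found among those searched.
INTS15: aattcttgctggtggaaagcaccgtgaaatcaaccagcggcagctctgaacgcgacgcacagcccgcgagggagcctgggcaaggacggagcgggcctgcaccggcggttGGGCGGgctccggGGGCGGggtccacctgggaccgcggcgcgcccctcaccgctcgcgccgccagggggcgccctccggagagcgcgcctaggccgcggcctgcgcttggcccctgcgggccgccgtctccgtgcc
INTS11: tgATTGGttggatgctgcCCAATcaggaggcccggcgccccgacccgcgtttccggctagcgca
MED29: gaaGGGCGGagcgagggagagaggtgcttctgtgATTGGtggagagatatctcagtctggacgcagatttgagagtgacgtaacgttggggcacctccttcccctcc
MED20: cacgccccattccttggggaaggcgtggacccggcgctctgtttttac

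The INTS15 stretch has 75.6% G and C and holds the GC box GGGCGG at 2 places. The INTS11 stretch of 64 bases holds 2 CCAAT boxes in opposite orientations, ATTGG being the same box on the other strand. MED29 has 1 match of each of these motifs, and the 48 bases of MED20 have none. Over the 250 bases before the start, CCAAT or its reverse was present for 6 of 11 Integrator and 10 of 25 Mediator genes with a sequence, against 32% of 35116 promoters. The GC box was present for 9 and 16 of them, against 42.6% of promoters. The ETS motif CCGGAAG was found for 4 and 5 of them (8.52% of promoters), the CRE motif TGACGTC for 1 and 2 (3.12%), the E-box CACGTG for 1 and 2 (6.34%), the NRF1 motif GCATGCG for 1 and 2 (3.39%) and the YY1 motif AAGATGG for 0 and 3 (3.7%). These are matches of letters on either strand and say nothing of binding. Members were counted per gene over all listed starts, but the percentages are per single promoter. A gene with several starts has more chances to match, so counts and percentages are unlike measures.

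Most Integrator transcripts were higher in cinobufagin-treated cells, the catalytic subunit gene INTS11 was lower, and INTS2, INTS13 and INTS14 did not pass. Of 15 Integrator genes, 11 rose, 1 fell and 3 missed the threshold (limma with a mean-variance trend, adjusted p under 0.05). Across all genes tested 39.2% rose and 28.4% fell, 67.7% in all, so a call is common in this comparison. The median log2 fold change of FPKM + 1 was 0.30 over the Integrator genes and 0.06 over all genes tested. In 11 of the 15 genes the 3 treated libraries lay above the 3 controls, which 41.2% of all genes tested did, and in 1 gene they lay below, as in 29.6% of all genes. A log2 rise of 0.5 or more was reached by 4 Integrator genes, against 10.2% of all genes tested.

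**Figure D1:**
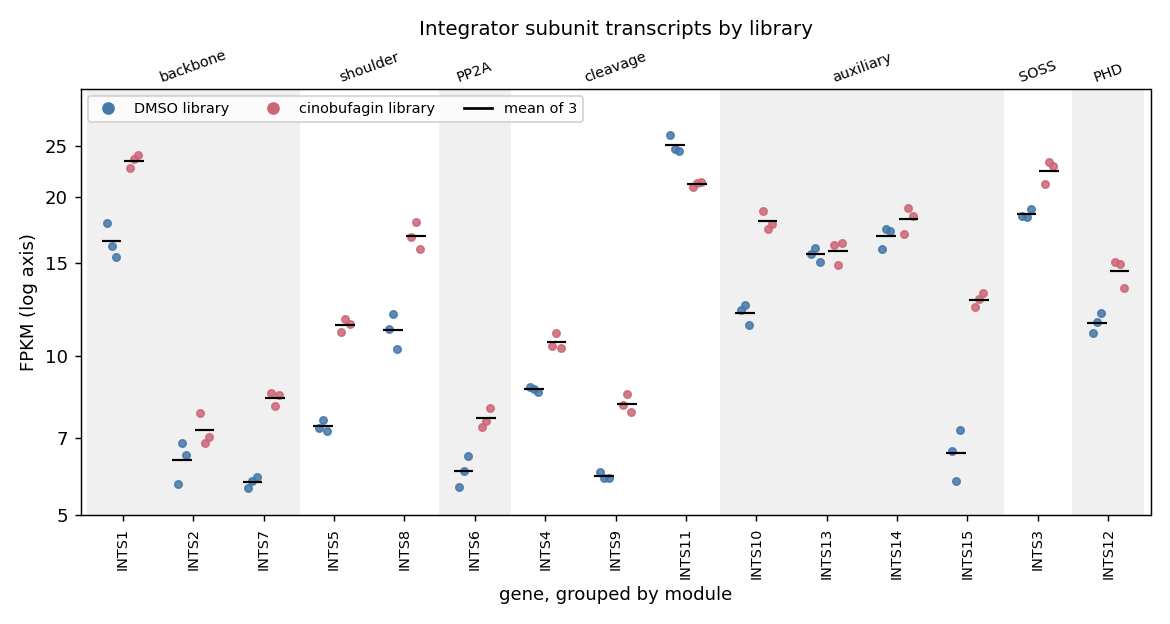
FPKM (log axis) of the 15 Integrator genes in each library, grouped by module, with blue points for DMSO, red points for cinobufagin and a black bar for the mean of 3. The red points lie above the blue ones in 11 genes, below them in INTS11 and among them in INTS2, INTS13 and INTS14.

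The largest rise was in INTS15, a subunit that joins the auxiliary module (gene ID 79034, chromosome 7, 6590017 to 6608726 in GENCODE 29 on GRCh38). It stood at 6.6, 5.8 and 7.25 FPKM in the DMSO libraries and at 12.38, 12.82 and 13.14 FPKM in the cinobufagin libraries. The groups were far apart, a 1.95-fold difference between means (log2 change 0.87 with an SE of 0.07, adjusted p 9.18e-07 by limma). INTS10, which forms the core of the same module with INTS13 and INTS14, went from 12.24, 12.49 and 11.42 to 18.82, 17.37 and 17.76 FPKM (log2 change 0.54 with an SE of 0.06, adjusted p 5.24e-06 by limma). Its partners did not pass. INTS13 had means of 15.6 and 15.8 FPKM and INTS14 of 16.9 and 18.2 FPKM (adjusted p 0.751 and 0.151 by limma). INTS13 turned slightly negative on the log2 scale after quantile normalization (-0.032) and median centring (-0.021).

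Both shoulder genes rose. INTS5 was at 7.3, 7.55 and 7.22 FPKM in DMSO and at 11.09, 11.76 and 11.51 FPKM in cinobufagin libraries, 1.56-fold higher with no overlap (log2 change 0.58 with an SE of 0.06, adjusted p 3.32e-06 by limma). INTS8, which holds the phosphatase on the complex, was at 11.26, 11.98 and 10.31 and then at 16.77, 17.9 and 15.95 FPKM (log2 change 0.55 with an SE of 0.07, adjusted p 1.52e-05 by limma). The end of INTS8 shares 1629 exon bases with the cyclin gene CCNE2 on the opposite strand. CCNE2 itself was lower, at 5.09 to 5.75 FPKM in DMSO and 3.28 to 3.48 FPKM in cinobufagin libraries, and without a stated strand setting reads of the shared bases cannot be told apart.

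In the backbone, INTS1, the largest subunit and a scaffold of the complex, rose from 17.85, 16.18 and 15.41 to 22.68, 23.58 and 24.05 FPKM (log2 change 0.49 with an SE of 0.06, adjusted p 1.83e-05 by limma). INTS7, at 5.63, 5.79 and 5.9 FPKM and then 8.49, 8.03 and 8.42 FPKM, was 1.44-fold higher. The third backbone gene, INTS2, had overlapping groups with means of 6.35 and 7.22 FPKM and did not pass (adjusted p 0.0792 by limma; 0.0429 without DMSO replicate 2). INTS6, which contacts the phosphatase, rose from a mean of 6.05 ± 0.415 to 7.61 ± 0.323 FPKM (SD, n = 3 each). INTS3, shared with the single-stranded DNA binding complex SOSS, rose by 0.26 and the PHD finger subunit gene INTS12 by 0.30 on the log2 scale.

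The cleavage module was split. INTS11 (gene ID 54973, chromosome 1, 1311585 to 1324691 in GENCODE 29 on GRCh38), the endonuclease, had the highest Integrator level in every DMSO library, at 26.16, 24.64 and 24.49 FPKM. In cinobufagin libraries it was at 20.86, 21.28 and 21.38 FPKM, all below the controls (log2 change -0.23 with an SE of 0.05, adjusted p 0.000937 by limma). INTS9, its inactive partner in the nuclease dimer, was at 6.03, 5.88 and 5.88 FPKM and rose to 8.07, 8.46 and 7.82 FPKM (log2 change 0.40 with an SE of 0.06, adjusted p 0.000122 by limma). The module's scaffold gene INTS4 rose from 8.73, 8.67 and 8.54 to 10.43, 11.05 and 10.36 FPKM (log2 change 0.27 with an SE of 0.06, adjusted p 0.00123 by limma). INTS11 stood at 4.34, 4.19 and 4.16 times the INTS9 level within the DMSO libraries and at 2.58, 2.52 and 2.73 times within the treated ones. Against INTS4 the ratio went from 2.84 to 3 down to 1.93 to 2.06. These ratios were picked after their values were seen and carry no test. INTS11 shares 93 exon bases with PUSL1 on the opposite strand, a gene at 8.67 to 11.02 FPKM in DMSO and 8.22 to 8.61 FPKM in cinobufagin libraries. The INTS11 call held in each of the 14 alternatives without a minimum fold change (adjusted p at most 0.00478 in all of them).

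Integrator levels lay closer together after treatment. The highest gene was 4.16 to 4.65 times the lowest in DMSO libraries and 3.09 to 3.45 times in cinobufagin libraries. The top place passed from INTS11 to INTS1 in each treated library, as the plot of Integrator levels shows.

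Mediator moved less and in both directions. Of its 32 tested genes, 17 rose, 4 fell and 11 did not pass, with a median log2 fold change of 0.16. That is 53.1% higher and 12.5% lower, against 39.2% and 28.4% of all genes tested, of which 67.7% were called. The same shares of all genes apply to the counts by module and gene list below. After quantile normalization or median centring the split was 14 higher and 6 lower in each case. Without cinobufagin replicate 3 the count of falls was 2, since MED8 and MED10 no longer passed. A log2 change of 0.5 or more was reached by 2 rising and 2 falling genes, against 10.2% and 11.3% of all genes tested. The treated libraries lay above the controls in 17 genes and below in 5, against 41.2% and 29.6% of all genes tested.

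**Figure D2:**
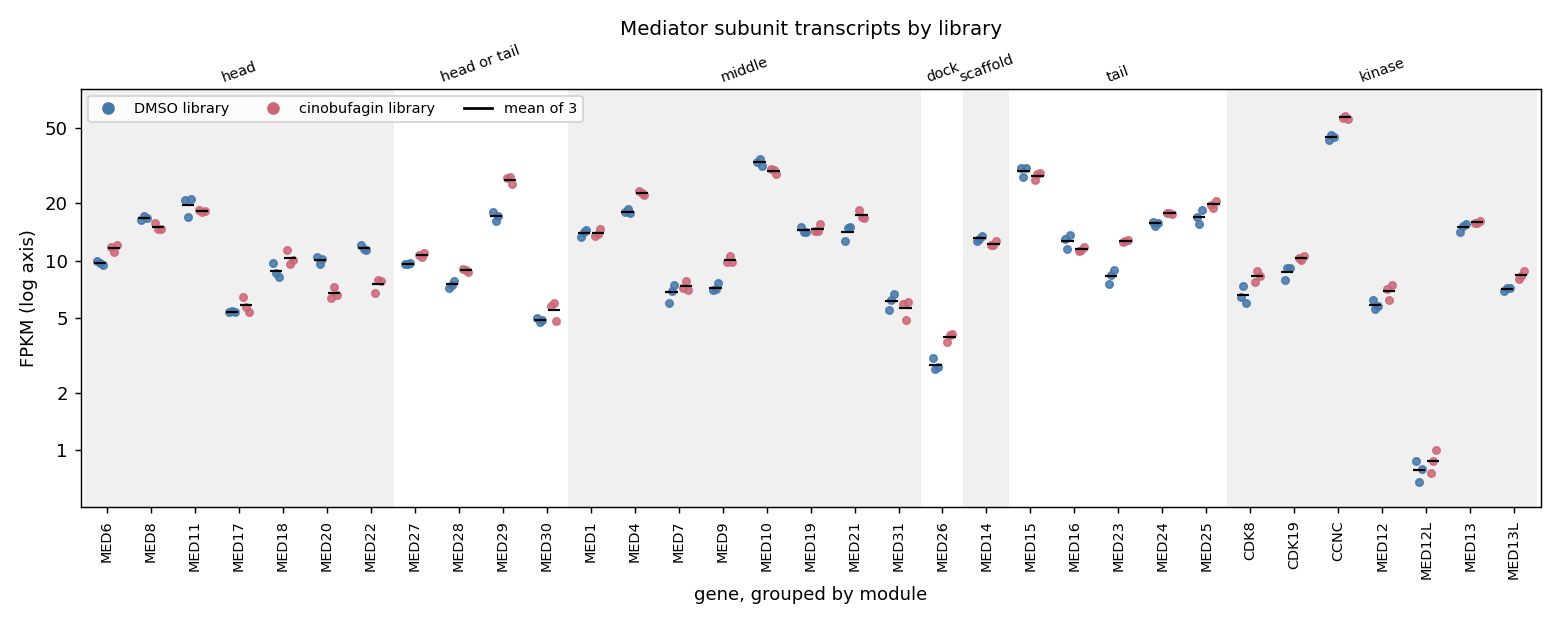
FPKM (log axis) of the 33 Mediator genes in each library, grouped by module, with blue points for DMSO, red points for cinobufagin and a black bar for the mean of 3. CCNC stands highest, at 43.43 to 58.04 FPKM, MED12L lowest, and MED20 and MED22 of the head lie lower in treated libraries.

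The head module, which meets the polymerase, held the largest falls. MED22 (gene ID 6837, chromosome 9, 133338323 to 133348131 in GENCODE 29 on GRCh38) went from 12.03, 11.48 and 11.3 FPKM to 6.77, 7.9 and 7.84 FPKM. The groups did not overlap, and the DMSO mean was 1.55 times the cinobufagin mean (log2 change -0.57 with an SE of 0.07, adjusted p 1.51e-05 by limma). MED20 (gene ID 9477, chromosome 6, 41905354 to 41921139) went from 10.45, 9.64 and 10.13 FPKM to 6.33, 7.25 and 6.59 FPKM, also without overlap (log2 change -0.52 with an SE of 0.07, adjusted p 2.56e-05 by limma). Their direct partners in the head were not called lower. MED18, which forms a dimer with MED20, had means of 8.84 ± 0.831 and 10.3 ± 0.959 FPKM (mean ± SD of 3 libraries each; log2 change 0.20 with an SE of 0.08, adjusted p 0.0389 by limma, range 0.0105 to 0.17 over its alternatives, past 0.05 in 9 of them without a minimum fold change), and its groups overlapped. MED20 stood at 1.07 to 1.24 times the MED18 level in DMSO and at 0.555 to 0.758 times in cinobufagin libraries. This ratio, too, was picked after its values were seen and carries no test. MED11, the partner of MED22, had overlapping groups with means of 19.7 and 18.2 FPKM (adjusted p 0.251 by limma; 0.00925 without DMSO replicate 2).

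MED6 had the largest rise of the head, by 0.24 on the log2 scale, from a mean of 9.71 to 11.6 FPKM. MED8 fell by 0.15 (adjusted p 0.0276 by limma), a call that was lost without any of DMSO replicate 2, DMSO replicate 3, cinobufagin replicate 2 and cinobufagin replicate 3 (0.0714 to 0.0938) and with the replicate number as a block (0.0586). MED17, the scaffold of the head, had means of 5.37 and 5.82 FPKM and did not pass (adjusted p 0.257 by limma).

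Of the subunits assigned to head or tail depending on the scheme, 3 of 4 rose. MED29 (gene ID 55588, chromosome 19, 39391303 to 39400637), the human counterpart of Drosophila intersex, had the largest Mediator rise. It was at 18.03, 16.22 and 17.16 FPKM in DMSO and at 27.4, 27.52 and 25.22 FPKM in cinobufagin libraries, 1.56-fold higher with no overlap (log2 change 0.61 with an SE of 0.06, adjusted p 1.79e-06 by limma). MED28 rose by 0.22 and MED27 by 0.14 on the log2 scale, and MED30 did not pass. MED27 is a marginal call, lost under 8 alternatives without a minimum fold change, its adjusted p going from 0.0367 to as much as 0.123.

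In the tail, MED23, a target of MAP kinase-activated ELK1 and of viral E1A, rose from 7.54, 8.42 and 8.88 FPKM to 12.51, 12.64 and 12.8 FPKM (log2 change 0.56 with an SE of 0.06, adjusted p 1.22e-05 by limma). It formed the second largest rise of the complex, with treated libraries tightly together. MED24 rose by 0.16 and MED25 by 0.21 on the log2 scale, the former at an adjusted p of 0.0657 after quantile normalization. MED15 and MED16 stood at means of 29.6 and 12.7 FPKM in DMSO and 28.0 and 11.5 FPKM in cinobufagin libraries, and neither passed (adjusted p 0.244 and 0.0784 by limma). MED16 did pass as lower after quantile normalization and median centring, and without DMSO replicate 2 (adjusted p 0.0161 to 0.028 by limma).

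Of 8 middle module genes, 3 rose, 1 fell and 4 did not pass. MED9 rose from 7.2 ± 0.326 to 10.1 ± 0.411 FPKM (mean ± SD of 3 libraries each), a log2 change of 0.44, MED4 from 18.1 ± 0.465 to 22.8 ± 0.595 FPKM and MED21 from 14.2 ± 1.25 to 17.4 ± 0.997 FPKM. MED10 fell by 0.15 on the log2 scale (adjusted p 0.0161 by limma), but not without DMSO replicate 2 or cinobufagin replicate 3 (0.065 and 0.0746). MED1, the subunit that binds nuclear receptors, had means of 13.96 and 13.97 FPKM (adjusted p 0.998 by limma). MED7, MED19 and MED31 had overlapping groups and adjusted p of 0.289 to 0.652 by limma. Outside the modules, the scaffold gene MED14, which ties the modules together, did not pass at means of 13.1 and 12.3 FPKM (adjusted p 0.17 by limma), although its 3 treated values lay below the controls. It passed as lower after quantile normalization, median centring and removal of the length and GC trend (adjusted p 0.0352 to 0.0452 by limma). MED26, where elongation factors dock on Mediator, was the lowest tested member and rose from 3.05, 2.69 and 2.75 to 3.71, 4.03 and 4.09 FPKM (log2 change 0.37 with an SE of 0.07, adjusted p 0.000926 by limma).

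In the kinase module 5 of 6 tested genes rose, by 0.21 to 0.34 on the log2 scale, and all 6 had treated libraries above the controls. Of all genes tested, 39.2% rose and 41.2% had treated libraries above the controls, and 6 genes are few. CCNC, encoding cyclin C, was the most abundant transcript of both complexes and rose from 43.43, 46.01 and 45.02 to 56.51, 58.04 and 55.9 FPKM (log2 change 0.34 with an SE of 0.04, adjusted p 2.37e-05 by limma). Both kinase genes rose. CDK8 went from 6.44, 7.35 and 6 to 7.71, 8.82 and 8.3 FPKM (log2 change 0.29 with an SE of 0.08, adjusted p 0.00595 by limma). CDK19 went from 7.88, 9.1 and 9.11 to 10.35, 10.05 and 10.63 FPKM (log2 change 0.23 with an SE of 0.07, adjusted p 0.00923 by limma). Cyclin C stood at 2.8 to 3.03 times the sum of both kinases in DMSO and 2.95 to 3.13 times in cinobufagin libraries, ranges that overlap. That ratio was likewise picked after its values were seen and carries no test.

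MED12, which activates the kinase, was at 6.17, 5.54 and 5.76 FPKM and then at 7.09, 6.23 and 7.41 FPKM (log2 change 0.21 with an SE of 0.07, adjusted p 0.0242 by limma). The call was lost in 6 alternatives without a minimum fold change, with adjusted p up to 0.106. MED13L rose by 0.21 on the log2 scale, while MED13, at means of 15.03 and 15.9 FPKM, did not pass (adjusted p 0.233 by limma). Within libraries the paralogs could be set against each other by an exact two-sided permutation test, which with 3 against 3 libraries cannot go below p = 0.1. The difference MED13 minus MED13L on the log2(FPKM + 1) scale was 0.99 in DMSO and 0.85 in cinobufagin libraries (exact p = 0.1, 0.267 adjusted over 4 pairs), without overlap between groups. For CDK8 minus CDK19 the change was 0.06 (exact p = 0.7, adjusted 0.7), for MED12 minus MED12L 0.14 (exact p = 0.2, adjusted 0.267) and for INTS6 minus INTS6L 0.27 (exact p = 0.2, adjusted 0.267). INTS6L was far lower than INTS6, at 1.25 to 1.63 FPKM over all libraries. MED12L was below the floor for testing, at 0.68 to 1 FPKM, so the added 1 weighs heavily in the MED12 minus MED12L difference.

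**Figure D3:**
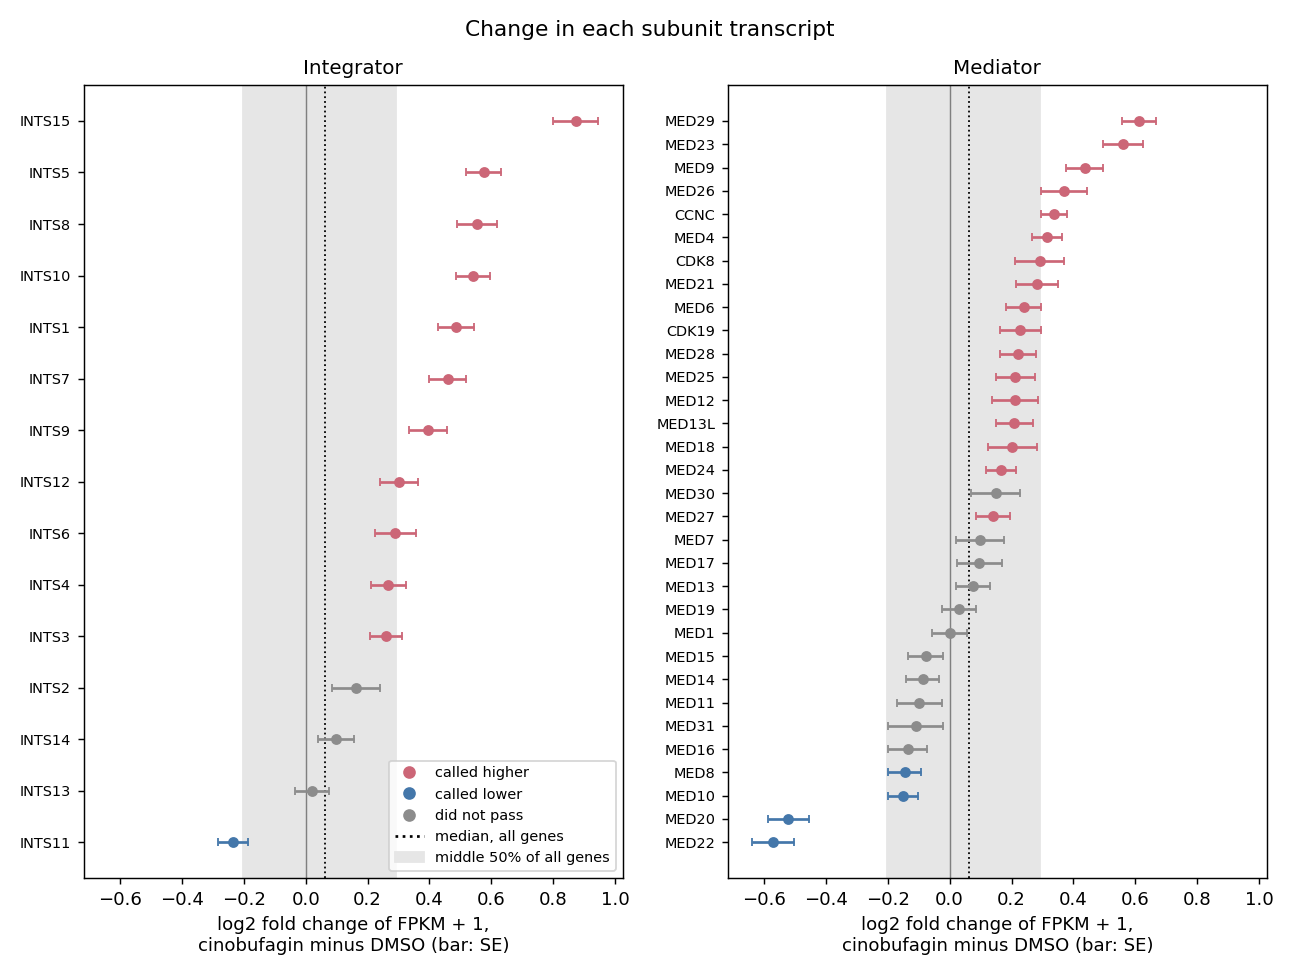
Log2 fold change of FPKM + 1 (cinobufagin minus DMSO) of each tested gene of both complexes, ranked, with SE bars, red for genes called higher, blue for lower and grey for those that did not pass. The dotted line marks the median of all genes tested (0.06) and the band their middle 50% (-0.20 to 0.29), within which 24 Mediator and 6 Integrator genes lie.

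The complexes were then set side by side. The mean of log2(FPKM + 1) over the Integrator genes was 3.51, 3.53 and 3.52 in DMSO libraries, below the Mediator means of 3.60, 3.60 and 3.63. In cinobufagin libraries it was 3.85, 3.87 and 3.85, above the Mediator means of 3.72, 3.72 and 3.73. The Integrator mean thus moved by 0.34 and the Mediator mean by 0.11, and the difference between the complexes moved by 0.22, with no overlap of the groups and a within-group SD of 0.02 and 0.01. Medians over the genes gave no such order in DMSO libraries, at 11.04, 11.59 and 10.31 FPKM for Integrator and 11.24, 10.59 and 10.7 FPKM for Mediator. In cinobufagin libraries the Integrator medians were 15.09, 14.84 and 13.44 FPKM and the Mediator medians 11.6, 11.24 and 11.9 FPKM. Members were chosen with results known, so these values carry no p. The difference between the complexes moved by 0.214 to 0.244 over the alternatives run.

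The subunit genes were then set beside their neighbours, since 14 of the members examined for this share a start region with a protein-coding gene on the opposite strand whose start lies within 1000 bases. Both genes were tested in 13 such pairs and both called in 7, in the same direction in 4 and in opposite directions in 3. Of all genes tested 67.7% were called, 39.2% higher and 28.4% lower. The number of pairs with both genes called is therefore no result about these pairs. Nor is their split by direction, since 7 pairs are few and no expected split was worked out. The head genes MED20 and MED22 moved in the same direction as their neighbours. MED20 begins 49 bases from BYSL, a gene of small ribosomal subunit assembly that went from 18.23, 17.03 and 17.32 to 10.4, 10.24 and 11.67 FPKM (log2 change -0.66 with an SE of 0.06, adjusted p 2.08e-06 by limma). MED22 begins 83 bases from the ribosomal protein gene RPL7A, which fell from 2530.14, 2438.16 and 2396.24 to 2072.72, 2006.29 and 2016.76 FPKM (log2 change -0.27 with an SE of 0.04, adjusted p 0.000147 by limma). INTS9 and its neighbour HMBOX1 both rose. PAF1, beside MED29 and part of the elongation complex that bears its name, was at 28.5, 23.48 and 25.58 and then at 28.48, 28.22 and 29.72 FPKM. Its groups overlapped and its call was marginal (log2 change 0.15 with an SE of 0.06, adjusted p 0.0491 by limma).

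In other pairs the neighbours parted. INTS7 starts 11 bases from DTL, an S phase ubiquitin ligase adaptor gene, which fell from 11.41, 11.93 and 12.05 to 4.97, 4.98 and 4.87 FPKM (log2 change -1.11 with an SE of 0.06, adjusted p 2.02e-08 by limma) while INTS7 rose. INTS11 and the lipid transfer gene CPTP, whose starts are 65 bases apart across the stretch with both CCAAT boxes, went down and up. CPTP was at 10.44, 10.86 and 10.89 FPKM and then at 11.32, 12.38 and 12.99 FPKM (log2 change 0.17 with an SE of 0.06, adjusted p 0.0261 by limma). MED25 rose beside FUZ, which starts 903 bases away and fell by 0.27 on the log2 scale (SE 0.10, adjusted p 0.036 by limma). FUZ was at 8.67, 6.26 and 8.71 FPKM in DMSO and at 6.09, 6.24 and 6.64 FPKM in cinobufagin libraries, so its groups overlapped.

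**Figure D4:**
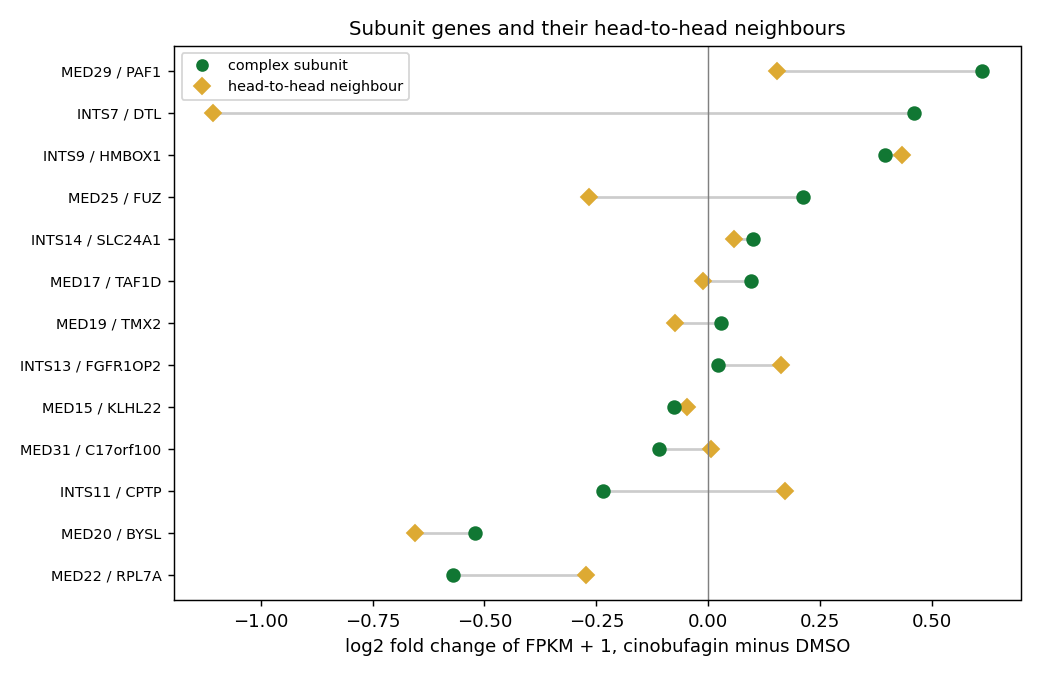
Log2 fold change of FPKM + 1 (cinobufagin minus DMSO) of 13 subunit genes (green circles) and of the gene starting within 1000 bases on the opposite strand (yellow diamonds), joined by a line. MED20 and MED22 lie to the left of zero with their neighbours, whereas INTS7 and DTL lie at 0.46 and -1.11.

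The partners of Integrator did not all share its rise. Of 11 partner genes, 6 rose, 2 fell and 3 did not pass, with 1 falling without DMSO replicate 3. PPP2R1A, the scaffold subunit of PP2A, rose from 45.3 ± 0.524 to 65.0 ± 2.46 FPKM (mean ± SD of 3 libraries each), a log2 change of 0.51, and its paralog PPP2R1B rose by 0.27. The 2 catalytic subunit genes parted. PPP2CA fell by 0.17 on the log2 scale, from a mean of 40.1 to 35.6 FPKM. PPP2CB rose by 0.19, from 47.7 to 54.4 FPKM. NABP2, the single-stranded DNA binding protein that joins INTS3 in SOSS, fell from 19.9 ± 0.364 to 13.9 ± 1.82 FPKM (log2 change -0.50 with an SE of 0.08, adjusted p 0.000139 by limma).

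Among genes of small nuclear RNA synthesis and the cap complex, 8 of 17 rose, 3 fell and 6 did not pass. SNAPC1, a subunit of the factor that starts small nuclear RNA genes, fell from 26.3 ± 2.88 to 11.5 ± 0.24 FPKM (log2 fold change -1.13), and TOE1, a nuclease that trims these RNAs, fell by 0.55. SNAPC3 and SNAPC5 of the same factor rose by 0.57 and 0.45. In the list of mRNA and histone 3′ end cleavage, to which the relatives of INTS11 and INTS9 belong, 5 of 21 genes rose and 4 fell, and 12 did not pass. After median centring 5 rose and 6 fell. CPSF3, the nuclease related to INTS11, had a mean of 26.6 FPKM in each group (adjusted p 0.986 by limma), and CPSF2, related to INTS9, had 7.24 and 7.17 FPKM (adjusted p 0.896 by limma). CLP1 and WDR33 rose by 0.36 and 0.32, while the histone mRNA binding protein SLBP fell by 0.33 and the scaffold SYMPK fell by 0.31 on the log2 scale.

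The polymerase that both complexes bind rose in its largest subunit. POLR2A went from 19.0 ± 0.873 to 36.9 ± 1.41 FPKM (mean ± SD of 3 libraries each; log2 change 0.92 with an SE of 0.05, adjusted p 3.06e-08 by limma). In all 5 of 12 subunit genes rose, POLR2L by 0.46, with 0 falling by limma (1 at an unadjusted p under 0.05, 2 at adjusted p after quantile normalization or median centring, 0 by limma without the trend, and 1 without cinobufagin replicate 3). Of 31 pausing and elongation factors 18 rose and 4 fell. HEXIM1, which holds the elongation kinase inactive, rose by 0.94, MLLT3 of the super elongation complex by 0.87, while NELFCD fell by 0.37 and TCEA1 fell by 0.24. Of 31 general transcription factor genes 11 rose, 3 fell and 17 did not pass, with TAF10 and TAF7 up by 0.64 and 0.46, and TAF9 and ERCC2 lower (log2 fold change -0.45 and -0.37). The median log2 fold change was 0.19 over the pausing and elongation factors, 0.11 over the polymerase subunits and 0.10 over the general factors, against 0.30 over Integrator and 0.16 over Mediator.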

How the data were processed

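The 6 libraries were made from total RNA, 3 with DMSO and 3 with cinobufagin. The authors deposited FPKM per gene, per the file headers, to 2 decimals. Bowtie2, RSEM 1.3.1, DESeq2 1.4.5 and GRCh38.p13 are listed, without the role of each, per the submitters' processing notes. No source used here gives the strand setting, annotation or read totals, so the depth is unknown and FPKM carries no counting error. Control columns, headed mock, were taken as the DMSO libraries of the same number. Lines without a gene ID (19) were left out. Symbols came from a RefSeq table (GRCh38.p14, names only), which matched 17881 of 17945 gene IDs, and positions from GENCODE 29 on GRCh38.

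Genes at 1 FPKM or more in at least 3 libraries were fitted with limma 3.58.1 (R 4.3.3, mean-variance trend) on log2(FPKM + 1), which understates changes of low genes. The Benjamini-Hochberg adjustment ran over the 11599 genes tested, the threshold was 0.05, and SD is over 3 libraries in FPKM. The script was tested on simulated data. Paralogs were compared with scipy 1.17.1. Alternatives were another pseudocount, filter, scaling or fit, a minimum fold change, a replicate block, each library left out and, chosen after seeing the data, removal of the length and GC trend. The members, modules and lists were chosen with earlier results of these data known. Every member was named. Full values were given to the 4 largest changes per complex and in the kinase module, and, chosen after values were seen, to INTS1, INTS4, INTS7, INTS9, INTS11 and MED26. Of each other list the 2 largest rises and falls that passed were named, with NABP2 and SNAPC1 among them, and CPSF2 and CPSF3 were added. A marker and a neighbour pair are not reported here. Exons of 22 members overlap another annotated gene.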

Additional observations from a re-analysis of the deposited data

How the results depend on the processing

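Of the 47 members tested, 14 kept direction and call in every one of up to 15 alternatives, and the 33 others changed in at least 1. A minimum log2 fold change of 0.5 ended 25 of these calls by construction and left 1183 and 1307 genes higher and lower among all genes, 4 and 0 in Integrator, 2 and 2 in Mediator, 1 and 1 among Integrator partners, 1 higher polymerase subunit, 3 and 0 among pausing factors, 1 and 0 among general factors, 1 and 2 among small nuclear RNA genes, and 0 and 0 among 3′ end genes. Leaving out 1 library gave 2 to 4 falling Mediator genes, 1 to 2 falling partners and 0 to 1 falling polymerase subunits. Falling polymerase subunits were 1 with at least 5 FPKM, 2 after quantile normalization, 2 after median centring and 1 with the length and GC trend removed, a setting chosen after seeing the data. The Integrator mean moved by 0.367 with a pseudocount of 0.1, 0.299 after quantile normalization, 0.294 after median centring and 0.324 without the length and GC trend. The Mediator mean moved by 0.077 after quantile normalization and 0.0698 after median centring, and their difference by 0.244 with a pseudocount of 0.1. The cause was not tested.

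INTS13 changed sign after quantile normalization (-0.032), median centring (-0.021) and trend removal (-0.00446), with -0.00352 to 0.0638 on leaving out libraries. MED1 did so likewise (-0.0539, -0.0418 and -0.0628, with -0.0315 to 0.0266), and MED19 after quantile normalization (-0.0291) and median centring (-0.0125), with -0.0101 to 0.0538. The CDK8 minus CDK19 change ran from -0.0267 to 0.111 on leaving out libraries. With the replicate number as a block, 4454 of all genes rose and 3236 fell, 11 and 1 in Integrator and 16 and 3 in Mediator, where MED8 and MED27 were lost. Deviations of same-numbered libraries correlated at -0.049, -0.105 and -0.00906, and those of differently numbered libraries at -0.112 to 0.162. Whether same-numbered libraries were handled together is not stated in the labels, and these correlations cannot settle it. Quantile normalization gave no value for MED12 minus MED12L, and FPKM without read totals sets no detection limit.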

Other observations

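Across the 15 Integrator genes the log2 fold change fell with the DMSO level (Pearson's r -0.55, Spearman's rho -0.429, a description across genes of the same libraries, in which the DMSO values enter both axes). Over the 32 Mediator genes these were -0.177 and -0.189, and over all 11599 genes tested -0.113 and -0.111. The length of a gene was taken as the median over its annotated transcripts, which can be far below its full length. INTS8 was thus listed at 597 bases, fewer than the 1629 exon bases it shares with CCNE2. The median of these lengths over genes was 1660.5 bases for Integrator, 1389 for Mediator and 1814.5 for all genes tested. Median GC content was 45.7%, 47.9% and 49.4% in that order. Removal of the length and GC trend rests on lengths of this kind. The fold change of all genes tested had r = 0.0461 with log2 length and -0.0803 with GC content.

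INTS3 and INTS12 also share exon bases with genes that moved as they did. SLC27A3 shares 455 bases with INTS3 on the same strand and was at 2.14 to 2.52 FPKM in DMSO and 4.04 to 4.33 FPKM in cinobufagin libraries. GSTCD shares 331 bases with INTS12 on the opposite strand and was at 5.18 to 6.02 and 6.94 to 7.37 FPKM. AAMDC, which shares 241 bases with INTS4 on the opposite strand, was at 13.09 to 20.06 and 27.28 to 28.67 FPKM. The part of shared reads in these results was not tested.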
